A study of Homo sapiens with 12 samples.

Results

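The genes described here are the standing machinery of Wnt signal transduction, from ligand secretion at the cell surface to the partners of β-catenin in the nucleus, without β-catenin and the TCF factors themselves. The rule names them by role and uses no measured value, although they were chosen with earlier results of these data known. There are 38 genes, of which 2 act in ligand secretion, 10 are receptors, 3 are Dishevelled proteins, 11 belong to the destruction complex and 12 are nuclear cofactors. A gene is represented by the brightest of the probe sets that carry its symbol and no other. On this array 36 of the 38 had such a probe set, among 19775 genes in all, and 34 of them were bright enough to be tested, among 12394 genes tested. PORCN was not analysed here, the probe sets of FZD8 were not used because they also carry the symbol of a microRNA, and PYGO1 and TLE4 lay below the limit, with signals of at most 18.5 and 11.3 on any array.

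Wnt ligands are given a lipid by Porcupine (PORCN) and carried to the surface by Wntless (WLS). They bind Frizzled receptors together with the co-receptors LRP5 or LRP6, which draw Dishevelled proteins to the membrane. In the absence of a ligand, the scaffold AXIN1 holds APC and the kinases GSK3 and CK1 around β-catenin, the F-box proteins BTRC and FBXW11 mark the phosphorylated β-catenin for degradation, and tankyrases in turn mark the Axin scaffold for removal. In the nucleus β-catenin on TCF factors recruits BCL9 and Pygopus proteins and the acetyltransferase CREBBP, whereas TLE and CtBP corepressors act when β-catenin is absent. Colorectal cancers commonly activate this pathway below the receptors, and Ls174T, the human colorectal carcinoma line used here, carries an activating mutation of β-catenin itself.

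RNA of 12 samples from Ls174T derivatives was measured on 1 array each, in 4 groups of 3. The line called Ls174T-pTER-β-catenin, in which doxycycline turns on an shRNA (a hairpin that silences its target) directed at β-catenin, was taken after 72 h with doxycycline and without it. The line called Ls174T-L8, in which doxycycline turns on a dominant-negative Tcf4 (dnTcf4), a form that blocks transcription through β-catenin, was taken after 24 h with doxycycline and without it. Cells without doxycycline are the control of their own line. The labels do not say whether a line is a single clone or whether arrays came from separate cultures, so p-values measure the spread between arrays only. Cells treated with doxycycline but lacking a construct were not analysed here. The agent and the construct therefore cannot be told apart, and neither can construct, line and time between the inductions. In RNA of whole cultures, fewer cells that express a gene and less of its RNA per cell cannot be told apart either.

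CTNNB1, which encodes β-catenin and is the target of the shRNA, had a signal of 156 ± 21.4 in shRNA-induced cells, against 3784 ± 195 in uninduced cells of that line (SD, n = 3 each), a 24.4-fold decrease, while its log2 change of 0.17 with dnTcf4 missed the threshold (adjusted p = 0.257 over all probe sets tested). A pair of TCF7L2 probe sets rose 11.6-fold and 7.55-fold with dnTcf4. The 4 other TCF7L2 probe sets tested, the brightest among them, were 1.33- to 1.65-fold higher with dnTcf4 and 1.40- to 1.67-fold higher after β-catenin knockdown. Arrays of a group correlated at 0.957 to 0.969 over genes, and array medians lay between 12.1 and 15.2 in signal units. All 10 colorectal epithelial markers passed the limit on brightness, and 7 of them rose after knockdown and 5 after dnTcf4. Their summed signal was 34859 to 39644 in shRNA-induced cells, against 16673 to 19414 in uninduced cells of that line. It was 33408 to 38053 in dnTcf4-induced cells, against 23196 to 25958 without induction. Summed signals of 10 fibroblast markers were far smaller, at 402 to 474 in shRNA-induced cells, against 283 to 317 without, and at 260 to 282 in dnTcf4-induced cells, against 191 to 198 without. Of 6 fibroblast markers tested, 2 rose after knockdown (ACTA2 and LUM) and 1 after dnTcf4 (LUM). Both sums moved with each induction, and their part in the changes of the Wnt components was not tested. The 6 leukocyte markers summed to 97.8 to 120 in shRNA-induced cells, against 116 to 142 without, and to 41.5 to 51.1 in dnTcf4-induced cells, against 39.1 to 55.1 without. Among them CORO1A fell by 1.31 after knockdown (adjusted p = 0.0024) and rose by 0.80 after dnTcf4 (adjusted p = 0.046). LYZ, which was too dim overall to be tested, averaged 46.2 in shRNA-induced cells, against 9.13 without, and 3.93 in dnTcf4-induced cells, against 6.53 without. The 4 endothelial markers summed to at most 64.8 on any array.

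Wnt components changed in both directions and by moderate amounts. After β-catenin knockdown 10 of the 34 were called at an adjusted p under 0.05 (limma, Benjamini-Hochberg over all genes tested), where 34.0% of all genes tested were called. Of these 3 rose, where 16.6% of all genes did, and 7 fell, where 17.4% did. After dnTcf4 12 were called, where 35.9% of all genes were. Of these 6 rose, where 16.0% of all genes did, and 6 fell, where 20.0% did. The share of components called was thus near the background in each induction, at 29.4% and 35.3%. Their median change was -0.02 on the log2 scale after knockdown, against 0.02 for all genes, and -0.04 after dnTcf4, against -0.05 for all genes. On these probe sets no component changed 2-fold or more in either induction. With all its probe sets averaged, a dim probe set under the limit for a test included, FZD1 passed 2-fold after knockdown (-1.12). The groups did not overlap for 17 of the 34 after knockdown, where 44.6% of all genes did not overlap, and for 13 after dnTcf4, where the share was 47.1%. With all probe sets of a gene averaged the counts fell to 5 and 5, and without the first uninduced array of the shRNA line 6 were called after knockdown.

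The same 7 components were called in both inductions in the same direction, where 18.1% of all genes were, and no component was called in opposite directions, where 1.55% of all genes were. FZD5, CSNK1D and BCL9L rose in both, and FZD1, DVL2, PYGO2 and CTBP1 fell in both. A further 3 were called after knockdown alone (FZD3, DVL3 and GSK3A) and 5 after dnTcf4 alone (AXIN1, TNKS2, CTNNBIP1, TLE1 and TLE3). Of these 8, only TLE1 and TLE3 passed the test of the difference between the changes. The remaining 19 passed in neither induction.

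**Figure D1:**
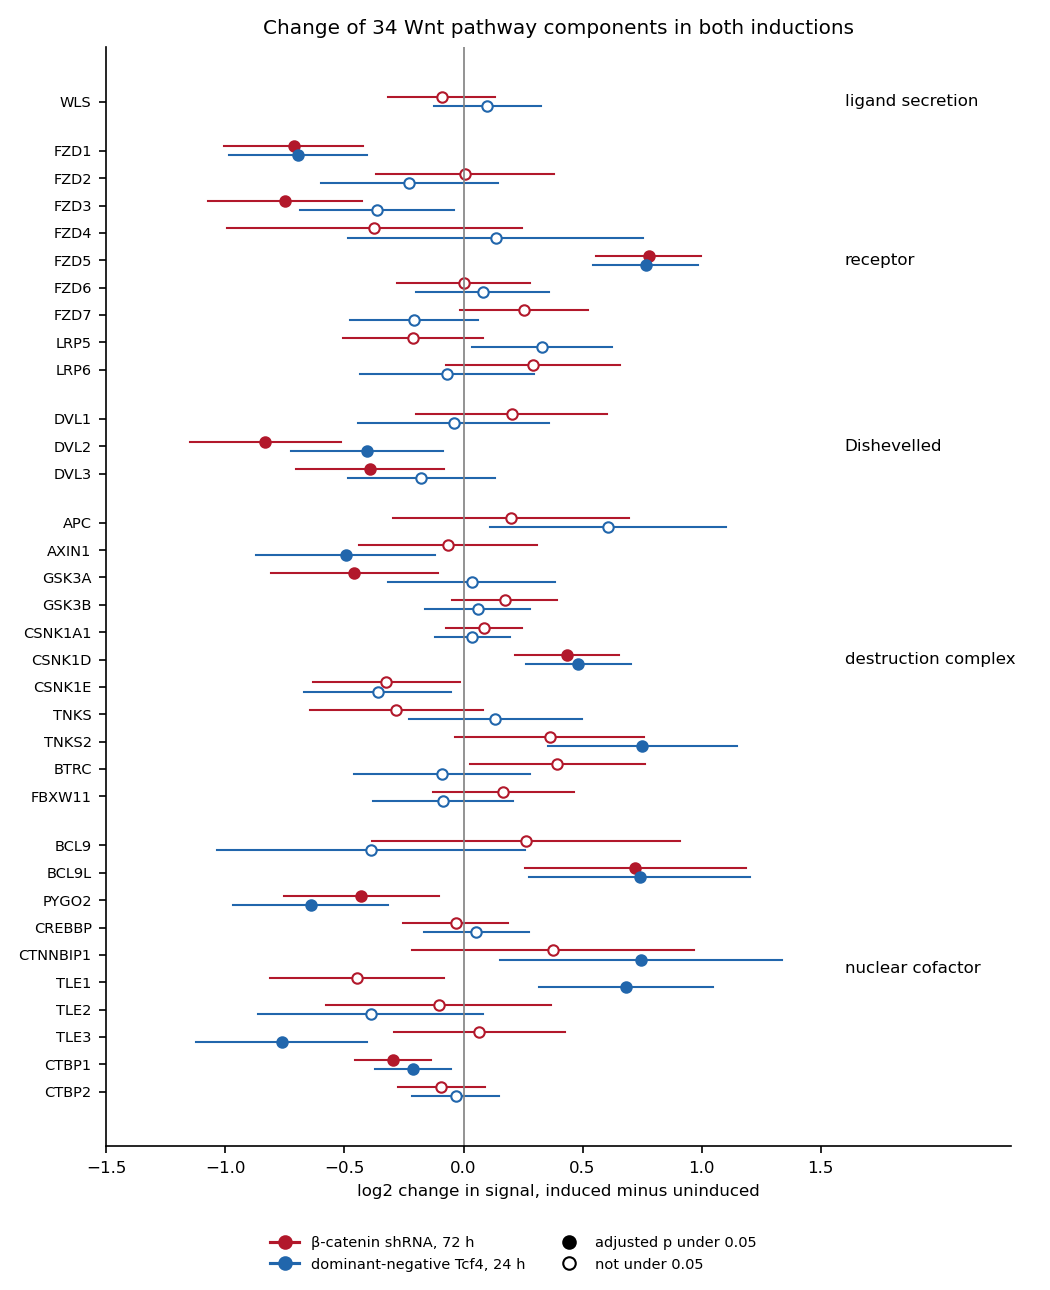
Change of each tested Wnt component on the log2 scale, induced minus uninduced, ordered by role, after β-catenin shRNA for 72 h (red) and dnTcf4 for 24 h (blue). Points are fitted changes, bars are 95% confidence intervals, and filled points have an adjusted p under 0.05. All 34 lie between -0.83 and 0.78, and the red and blue points lie farthest apart for TLE1 and TLE3.

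Promoter sequences are given here for 4 components that the results turn on. FZD1 and FZD5 are receptors that moved in opposite directions by like amounts in both inductions, DVL2 had the largest decrease after knockdown, and TLE3 the largest after dnTcf4. Each run is the 250 bases before the annotated gene start, read 5′ to 3′ on the gene's strand, from RefSeq on GRCh38.p14. The positions are chr7:91264183-91264432 on the plus strand for FZD1 and chr2:207769907-207770156 on the minus strand for FZD5. They are chr17:7234518-7234767 on the minus strand for DVL2 and chr15:70097918-70098167 on the minus strand for TLE3. Capitals mark CACGTG, the palindromic E-box that bHLH factors of the MYC family can bind.
FZD1: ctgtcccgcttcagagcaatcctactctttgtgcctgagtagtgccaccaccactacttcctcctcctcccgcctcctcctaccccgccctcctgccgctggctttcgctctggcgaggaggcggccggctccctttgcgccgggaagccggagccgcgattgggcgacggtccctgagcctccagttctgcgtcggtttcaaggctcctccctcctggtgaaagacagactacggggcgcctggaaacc
FZD5: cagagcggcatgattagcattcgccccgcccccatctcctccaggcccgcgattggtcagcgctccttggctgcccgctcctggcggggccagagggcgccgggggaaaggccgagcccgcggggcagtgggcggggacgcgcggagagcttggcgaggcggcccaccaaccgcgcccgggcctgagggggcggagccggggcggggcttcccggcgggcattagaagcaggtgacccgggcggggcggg
DVL2: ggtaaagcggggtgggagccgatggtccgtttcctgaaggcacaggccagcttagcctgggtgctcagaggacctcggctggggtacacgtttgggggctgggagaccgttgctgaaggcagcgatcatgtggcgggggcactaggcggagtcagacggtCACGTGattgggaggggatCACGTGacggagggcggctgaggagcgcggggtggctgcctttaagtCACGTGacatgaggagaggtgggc
TLE3: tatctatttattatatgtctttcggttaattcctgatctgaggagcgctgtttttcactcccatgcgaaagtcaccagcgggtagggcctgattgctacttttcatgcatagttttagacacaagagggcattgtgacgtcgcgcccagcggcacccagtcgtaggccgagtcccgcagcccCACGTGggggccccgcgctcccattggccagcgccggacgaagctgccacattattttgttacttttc

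The table held such a promoter for 29 of the 38 components. The TCF/LEF core, searched as CTTTGAT and CTTTGAA on both strands, stood in 0 of these 29 windows, against 6.03% of 27305 promoters of the table. CACGTG, which reads the same on both strands and was searched for after the values were seen, stood in 4 of 29 (13.8%), against 6.49% of all. It occurred 3 times in DVL2 and also in TNKS2, TLE3 and CTBP1. The component promoters had a median GC content of 65.2%, against 58% for all promoters. A match is a string of letters and not a measured site, and no match speaks only for these 250 bases.

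Ligand secretion was represented by WLS, which did not pass in any comparison. Its signal was 306.2 to 356 in shRNA-induced cells, against 318.6 to 375.9 without induction, and 367 to 432.9 in dnTcf4-induced cells, against 359.2 to 389.1 without. The groups overlapped in both lines.

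Among the 9 receptors tested, FZD5 rose and FZD1 fell in both inductions, and FZD3 fell after knockdown. FZD5, a Frizzled receptor known in mouse from Paneth cells of the intestinal crypt, had signals of 1028.3, 1018 and 848.4 in shRNA-induced cells, against 514.1, 558.1 and 615.4 in uninduced cells of that line. They were 677.4, 700.9 and 587.1 in dnTcf4-induced cells, against 380, 385.1 and 388.2 without induction. Every induced array lay above every uninduced array of its line. The rise was 0.78 ± 0.10 on the log2 scale after knockdown (SE, adjusted p = 2.14e-05) and 0.76 ± 0.10 after dnTcf4 (adjusted p = 2.64e-05). Their difference was 0.01, with a 95% interval of -0.30 to 0.32. A dimmer probe set of FZD5 changed by 0.74 after knockdown (adjusted p = 0.066 over all probe sets tested) and by 0.24 after dnTcf4 (adjusted p = 0.600), so that the rise after dnTcf4 rests on the brighter one.

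FZD1, another Frizzled receptor, moved the other way. Its signals were 78.1, 75.6 and 74.5 in shRNA-induced cells, against 123.9, 123.9 and 126.4 without induction. They were 65.3, 67.7 and 60.4 in dnTcf4-induced cells, against 92.4, 105.9 and 115.9 without. The groups did not overlap in either line. FZD1 fell by 0.71 ± 0.14 after knockdown (adjusted p = 0.000648) and by 0.70 ± 0.14 after dnTcf4 (adjusted p = 0.000797). The difference was -0.02, with a 95% interval of -0.43 to 0.39, and both calls held when any 1 array was left out. A dimmer FZD1 probe set that was tested passed in neither induction. It changed by -0.44 after knockdown (adjusted p = 0.302 over all probe sets tested) and by -0.26 after dnTcf4 (adjusted p = 0.571). The remaining probe set lay under the limit for a test, with mean signals (geometric) of 1.30 in shRNA-induced cells, against 5.98 without. With all FZD1 probe sets averaged, this dim one included, the change after knockdown was -1.12 (adjusted p = 0.0127). The averaged change after dnTcf4 was -0.66 and did not pass (adjusted p = 0.123).

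FZD3, a Frizzled known from axon guidance and planar polarity, had signals of 77.1, 70.6 and 68.3 in shRNA-induced cells, against 122, 102.9 and 141.3 in uninduced cells of that line. All induced values lay lower, and FZD3 fell by 0.75 ± 0.15 (adjusted p = 0.00103). With dnTcf4 the signals were 138, 128.4 and 112.9, against 169.1, 138.6 and 180.9 without induction. The groups did not overlap there either, but -0.36 missed the threshold (adjusted p = 0.0771), and passed without the second uninduced array (-0.47, adjusted p = 0.0426). In addition, the difference between the inductions did not pass (-0.39, adjusted p = 0.244). Of 3 further FZD3 probe sets, 1 also fell after knockdown, by 1.13 (adjusted p = 0.011), and the other changes were -0.27 and -0.61.

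The remaining receptors did not pass in either induction. FZD2 changed by 0.01 and -0.23 after knockdown and dnTcf4, FZD4 by -0.37 and 0.14, and FZD6 by 0.00 and 0.08. The co-receptor LRP6 changed by 0.29 and -0.07, and without the third uninduced array of the shRNA line its change after knockdown was 0.53 and passed (adjusted p = 0.00769). Its dimmer probe sets changed by -0.30 and 0.05 after knockdown, and neither passed (adjusted p = 0.317 and 0.895 over all probe sets tested). LRP5, the other co-receptor, changed by -0.21 and 0.33, a difference of -0.54 that missed the threshold (adjusted p = 0.067), and its groups did not overlap in either line. FZD7, a Frizzled linked in mouse to intestinal stem cells, showed opposite values as well, 0.25 after knockdown and -0.21 after dnTcf4. Its 124.9, 125.1 and 119.2 in shRNA-induced cells lay above 99.3, 111.1 and 99.5 without induction, and its 95.1, 109.8 and 107.1 in dnTcf4-induced cells lay below 123.3, 111.2 and 125.7 without. On the brighter FZD7 probe set the difference of 0.46 did not pass (adjusted p = 0.0879). On the dimmer one FZD7 rose by 0.45 after knockdown (adjusted p = 0.0395), changed by -0.34 after dnTcf4 (adjusted p = 0.11), and the difference of 0.79 passed (adjusted p = 0.024). On that dimmer probe set the uninduced lines differed as well. The mean signal (geometric) was 121 in the uninduced dnTcf4 line, against 80.5 in the uninduced shRNA line (0.59, adjusted p = 0.0076 over all probe sets tested).

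**Figure D2:**
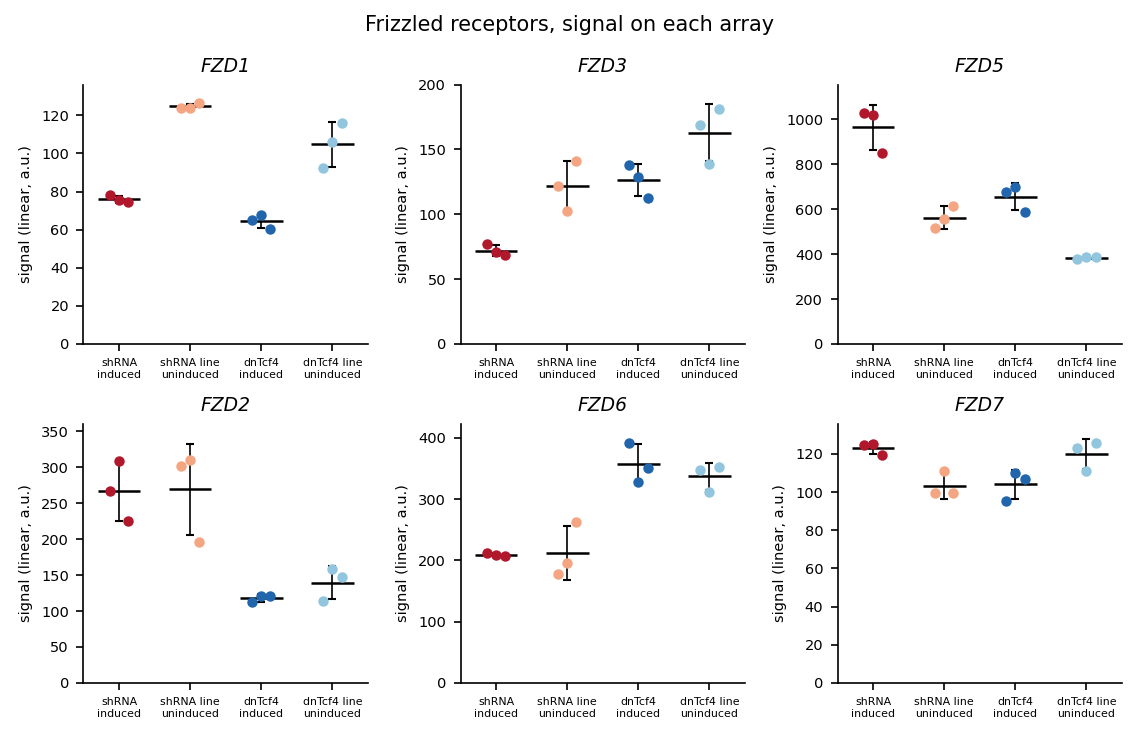
Signal of 6 Frizzled receptors on each array (vertical axis, linear signal in arbitrary units), by group from left to right: shRNA induced, shRNA line uninduced, dnTcf4 induced, dnTcf4 line uninduced. Points are arrays, lines are means and bars are SD. FZD1 is lower and FZD5 higher with each induction, whereas FZD2 and FZD6 differ between the lines.

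Among the Dishevelled proteins, which carry the signal from the receptors to the destruction complex, DVL2 fell in both inductions and DVL3 after knockdown. DVL2 had signals of 78.4, 106.4 and 101.1 in shRNA-induced cells, against 181.8, 173.8 and 150.6 without induction. They were 118.2, 118.6 and 94 in dnTcf4-induced cells, against 155.6, 142.6 and 137.8 without. Induced arrays lay below uninduced arrays in both lines. DVL2 fell by 0.83 ± 0.15 on the log2 scale after knockdown (adjusted p = 0.000369), the largest decrease among the components in this comparison. After dnTcf4 DVL2 fell by 0.40 ± 0.15 (adjusted p = 0.0448). This second call held without the second induced array and was lost without any other array of the dnTcf4 line, at -0.46 to -0.29. The second DVL2 probe set changed by -0.70 after knockdown (adjusted p = 0.075) and fell by 0.86 after dnTcf4 (adjusted p = 0.028).

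DVL3 had signals of 157.1, 151.3 and 158.2 in shRNA-induced cells, against 206.2, 212.4 and 194.2 without induction, with no overlap. It fell by 0.39 ± 0.15 (adjusted p = 0.0479), a call that was lost when any 1 array of the line was left out (-0.43 to -0.36). A dimmer DVL3 probe set changed by -0.10 after knockdown (adjusted p = 0.865 over all probe sets tested). With the DVL3 probe sets averaged the change was -0.24 and did not pass (adjusted p = 0.311). With dnTcf4 DVL3 had 140.2, 163 and 222.7, against 208, 199.5 and 177.3 without induction, and the groups overlapped (-0.18, adjusted p = 0.387). Without the third induced array, which lay highest, the change there was -0.36 and passed (adjusted p = 0.0404). DVL1 changed by 0.20 and -0.04 after knockdown and dnTcf4, and passed in neither.

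In the destruction complex CSNK1D, which encodes the δ isoform of the CK1 kinases, rose in both inductions. Its signals were 450.6, 492.9 and 445.6 in shRNA-induced cells, against 352.3, 334.3 and 340.2 without induction. They were 575.2, 615.8 and 481.1 in dnTcf4-induced cells, against 419.7, 373.1 and 399 without. Every induced array lay above the uninduced ones. The rise was 0.43 ± 0.10 after knockdown (adjusted p = 0.00358) and 0.48 ± 0.10 after dnTcf4 (adjusted p = 0.00158). A second CSNK1D probe set did not pass, at 0.22 and 0.17, and with all its probe sets averaged the change after knockdown was -0.0018 and that after dnTcf4 0.07.

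TNKS2, a tankyrase that marks Axin for removal, rose after dnTcf4. It had signals of 364.8, 272.3 and 302 in dnTcf4-induced cells, against 192.7, 139.5 and 234.1 without induction, with no overlap. The rise was 0.75 ± 0.19 (adjusted p = 0.00478) and was called when any 1 array was left out. Dimmer TNKS2 probe sets that were tested changed by 0.45 and 0.91 after dnTcf4, and neither passed (adjusted p = 0.139 and 0.077 over all probe sets tested). With all TNKS2 probe sets averaged the change was 0.53 and did not pass (adjusted p = 0.0918). After knockdown TNKS2 had 263.3, 364.7 and 234.8, against 205, 210.1 and 246.8 without induction, and the change of 0.36 did not pass (adjusted p = 0.155). AXIN1, the scaffold of the complex, fell after dnTcf4. Its 52.3, 59.8 and 64.3 in dnTcf4-induced cells lay below 75.2, 88.7 and 84.4 without induction, a decrease by 0.50 ± 0.18 (adjusted p = 0.0382). The call for AXIN1 was lost without the first or the second induced array or the second or the third uninduced one, at -0.51 to -0.41. After knockdown AXIN1 had 74.4, 89.6 and 86.5, against 87, 69.8 and 108.8 without induction, and the groups overlapped (-0.07).

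GSK3A, a kinase that phosphorylates β-catenin, fell after knockdown. It had 70.7, 78.3 and 106.1 in shRNA-induced cells, against 117, 119.1 and 109.2 without induction, so that the third induced array lay close to the lowest uninduced one. GSK3A fell by 0.46 ± 0.17 (adjusted p = 0.0424). Without the third induced array the change was -0.63 and was called, and without any other array of the line the call was lost (-0.50 to -0.34). With dnTcf4 GSK3A had 103.5, 109.3 and 141.2, against 113.4, 122.3 and 107.4 without induction (0.03, adjusted p = 0.904). A dimmer GSK3A probe set changed by -0.07 after knockdown (adjusted p = 0.949 over all probe sets tested) and by 0.85 after dnTcf4 (adjusted p = 0.299). With the GSK3A probe sets averaged the change after knockdown was -0.26 and did not pass (adjusted p = 0.607). The related kinase GSK3B changed by 0.17 and 0.06 on its brightest probe set and passed in neither induction, although another of its probe sets rose by 0.40 after knockdown (adjusted p = 0.013).

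Other members of the complex did not pass in either induction. APC, the scaffold lost in most colorectal cancers, changed by 0.20 after knockdown and by 0.61 after dnTcf4 (adjusted p = 0.0541). Its signals in the dnTcf4 line were 121, 82.3 and 66.1 with induction, against 53.9, 49.8 and 69.6 without, and the third induced array lay within the uninduced range. Without that array the change was 0.80 and passed (adjusted p = 0.0188). CSNK1E, the ε isoform of CK1, changed by -0.32 and -0.36 (adjusted p = 0.101 and 0.066), and without the second dnTcf4-induced array by -0.51 after dnTcf4, which passed (adjusted p = 0.0136). A dimmer CSNK1E probe set changed by -0.18 and 0.09. Probe sets that also carry the symbol TPTEP2-CSNK1E were not used or tested. A bright one had mean signals (geometric) of 78.0 in dnTcf4-induced cells, against 121 without, and another bright one 71.1, against 120. In shRNA-induced cells they had 84.4, against 91.4 without, and 73.8, against 96.9. CSNK1A1, the α isoform, changed by 0.09 and 0.04 on its brightest probe set, and another of its probe sets rose by 0.34 after dnTcf4 (adjusted p = 0.0066). TNKS changed by -0.28 and 0.13 and FBXW11 by 0.17 and -0.09. BTRC changed by 0.39 and -0.09, and its change after knockdown was 0.52 and passed without the third uninduced array (adjusted p = 0.0415). Dimmer BTRC probe sets that were tested changed by -0.02 and -0.68 after knockdown, and neither passed (adjusted p = 0.973 and 0.081 over all probe sets tested).

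**Figure D3:**
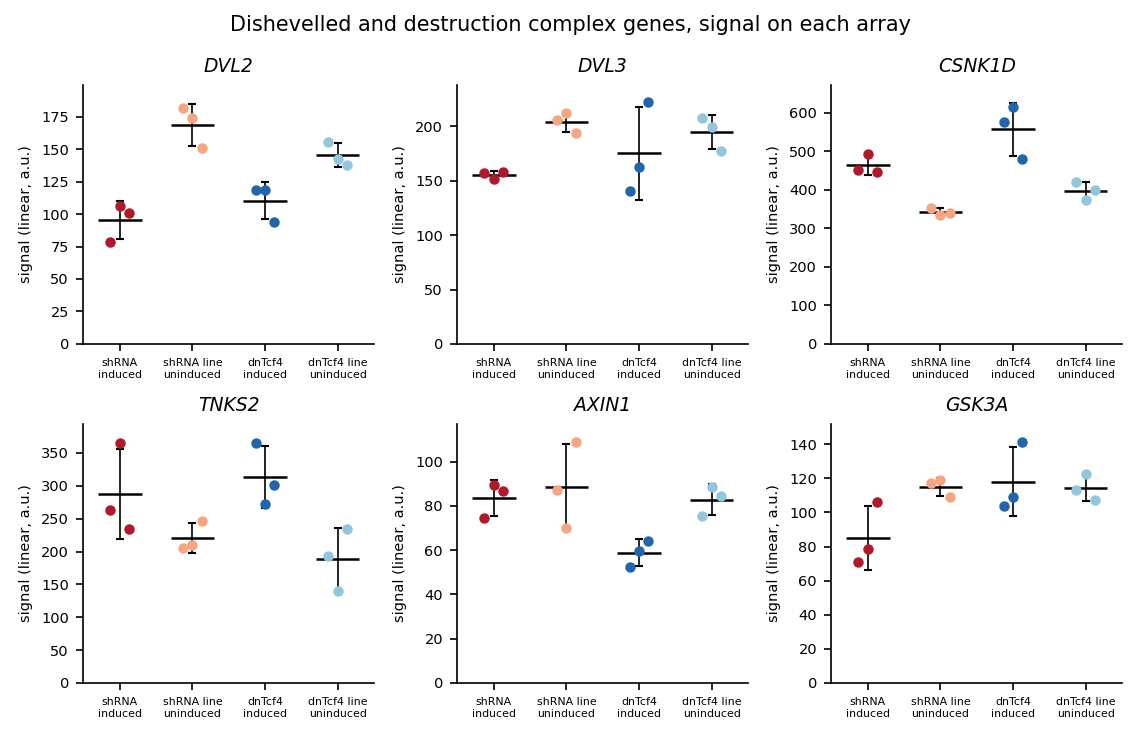
Signal of DVL2, DVL3, CSNK1D, TNKS2, AXIN1 and GSK3A on each array (vertical axis, linear signal in arbitrary units), with the induced group of each line left of its uninduced group. Points are arrays, lines are means and bars are SD. DVL2 is lower and CSNK1D higher on every induced array than on the uninduced arrays of its line, and TNKS2 and AXIN1 separate only in the dnTcf4 line.

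Among the nuclear cofactors 1 activator subunit rose in both inductions and another fell. BCL9L, which links β-catenin to Pygopus, had 159.5, 150.3 and 155.1 in shRNA-induced cells, against 85.3, 102 and 95.3 without induction. It rose by 0.72 ± 0.22 (adjusted p = 0.0173), a call lost without the first uninduced array (0.65). With dnTcf4 BCL9L had 69.9, 80.4 and 119.9, against 75, 41.2 and 46.9 without induction, and the groups overlapped, the first array of each lying against the direction. The rise there was 0.74 ± 0.22 (adjusted p = 0.0143), and the call was lost without the third induced or the second or the third uninduced array (0.51 to 0.66). A second BCL9L probe set did not pass, at 0.37 and 0.24. Its paralogue BCL9 changed by 0.26 and -0.39 and passed in neither.

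PYGO2, a Pygopus protein that reads methylated histone H3, fell in both. Its signals were 152.9, 131.3 and 130.7 in shRNA-induced cells, against 184, 195.7 and 177.6 without induction. They were 125.3, 115.3 and 182.9 in dnTcf4-induced cells, against 232.2, 204 and 212.1 without. The groups did not overlap in either line, although the third dnTcf4-induced array stood nearer to the uninduced arrays than the other two. PYGO2 fell by 0.43 ± 0.15 after knockdown (adjusted p = 0.0402), a call that held without the first induced array and was lost without any other of that line (-0.46 to -0.39). After dnTcf4 PYGO2 fell by 0.64 ± 0.15 (adjusted p = 0.00353), and this call held when any 1 array was left out. With both PYGO2 probe sets averaged, 1 of which lay under the limit for a test, the changes were -0.70 after knockdown (adjusted p = 0.302) and -0.96 after dnTcf4 (adjusted p = 0.144), and neither passed. CTNNBIP1, an inhibitor that keeps β-catenin off TCF, rose by 0.75 ± 0.28 after dnTcf4 (adjusted p = 0.0473). Its 59.1, 74.5 and 65.4 in dnTcf4-induced cells overlapped with 32.6, 66.3 and 28.3 without induction. Without the second uninduced array the rise of CTNNBIP1 was 1.12, and without any other array of the line it did not pass (0.51 to 0.83). After knockdown CTNNBIP1 had 48.5, 65.5 and 67.4, against 54.4, 49.2 and 36.6 without induction (0.38, adjusted p = 0.335). The acetyltransferase CREBBP changed by -0.03 and 0.05.

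Corepressors gave the largest differences between the inductions among the components. TLE1 and TLE3 are Groucho-type corepressors that bind TCF factors in place of β-catenin. TLE1 had 86.2, 100.1 and 75.9 in dnTcf4-induced cells, against 52.7, 53.3 and 56.5 without induction. All induced arrays lay above the uninduced ones, and TLE1 rose by 0.68 ± 0.17 (adjusted p = 0.00534). Dimmer TLE1 probe sets that were tested changed by 0.49, 0.70 and 0.48 after dnTcf4. None of them passed (adjusted p = 0.278, 0.136 and 0.433 over all probe sets tested). With all TLE1 probe sets averaged, a dim one under the limit for a test included, the change was 0.57 and did not pass (adjusted p = 0.174). After knockdown TLE1 had 47.5, 55.1 and 57.3, against 81.5, 75.6 and 61.6 without induction. Here all induced arrays lay below, but -0.45 missed the threshold (adjusted p = 0.0566), and passed without the third uninduced array (-0.56, adjusted p = 0.0269).

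TLE3 had 76.5, 75.4 and 106.9 in dnTcf4-induced cells, against 178.9, 141.4 and 119.4 without induction. The groups did not overlap, and TLE3 fell by 0.76 ± 0.17 (adjusted p = 0.00206), the largest decrease among the components after dnTcf4. After knockdown it had 156.6, 136.3 and 152.9, against 155.7, 142.1 and 128.3 without induction, and the groups overlapped (0.07, adjusted p = 0.807).

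Of the 34 components, these 2 were called for the difference between the changes, knockdown minus dnTcf4, where 17.6% of all genes were. TLE3 was positive, where 9.03% of all genes were called, and TLE1 negative, where 8.62% were. For TLE1 the difference was -1.13 ± 0.24, with a 95% interval of -1.65 to -0.61 (adjusted p = 0.00426). It was called when any 1 array was left out. On the dimmer TLE1 probe sets the difference was -0.82, -0.60 and -1.32, and none passed. With all TLE1 probe sets averaged the difference was -0.78 and did not pass (adjusted p = 0.262). For TLE3 it was 0.83 ± 0.24, with a 95% interval of 0.32 to 1.34 (adjusted p = 0.0241). That call was lost without the first induced or the third uninduced array of the shRNA line, or the first or the second induced or first uninduced array of the dnTcf4 line (0.68 to 0.79). A second TLE3 probe set fell by 0.92 after dnTcf4 (adjusted p = 0.00016), changed by -0.38 after knockdown (adjusted p = 0.061) and did not pass for the difference (0.54, adjusted p = 0.10). The dimmer TLE3 probe sets changed by -0.52 and -0.33 after dnTcf4, and neither passed (adjusted p = 0.064 and 0.321). Their differences of 0.30 and 0.54 did not pass either (adjusted p = 0.562 and 0.308 over all probe sets tested).

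CTBP1, a corepressor that TCF factors can recruit, fell in both inductions by small amounts. It had 1593.2, 1673.5 and 1797.5 in shRNA-induced cells, against 2199.8, 2029.4 and 1992.7 without induction. With dnTcf4 it had 1503, 1639.7 and 1693.2, against 1864.2, 1857.7 and 1874.5 without induction. No induced array reached its uninduced group. CTBP1 fell by 0.30 ± 0.08 after knockdown (adjusted p = 0.00561) and by 0.21 ± 0.08 after dnTcf4 (adjusted p = 0.0372). The call after dnTcf4 was lost without any array of that line but the third induced one (-0.23 to -0.16). Its 3 bright probe sets fell in both inductions, and its remaining dim probe set was at 0.63 after knockdown (adjusted p = 0.63). CTBP2 changed by -0.09 and -0.03 on its brightest probe set. Of its 4 further probe sets tested, 1 fell by 0.41 after knockdown (adjusted p = 0.029) and by 0.37 after dnTcf4 (adjusted p = 0.048), and another CTBP2 probe set fell by 0.38 after dnTcf4 (adjusted p = 0.0039). All 5 had values below 0 in both inductions, and with all probe sets averaged CTBP2 fell by 0.53 after dnTcf4 (adjusted p = 0.0228). TLE2 changed by -0.10 and -0.39 and passed in neither, and without the first dnTcf4-induced array the change there was -0.66 and passed (adjusted p = 0.0204). These signals were low, at 12.4 to 26.3 in dnTcf4-induced cells, near the limit of 10.2 for a test. A dimmer TLE2 probe set changed by 0.06 after dnTcf4 (adjusted p = 0.959 over all probe sets tested).

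**Figure D4:**
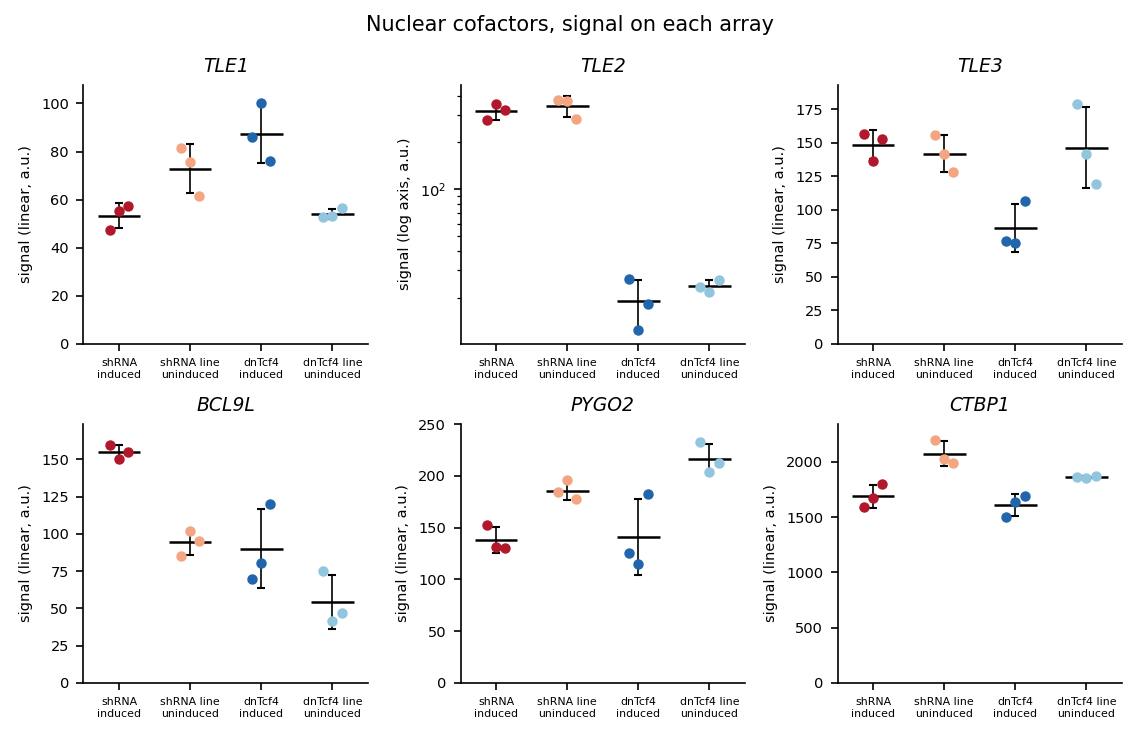
Signal of TLE1, TLE2, TLE3, BCL9L, PYGO2 and CTBP1 on each array (vertical axis, signal in arbitrary units, linear except for the log axis of TLE2), with the induced group of each line left of its uninduced group. Points are arrays, lines are means and bars are SD. TLE1 is higher and TLE3 lower on the dnTcf4-induced arrays than on the uninduced arrays of that line, and TLE2 is low on all 6 arrays of the dnTcf4 line.

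Without induction the lines themselves differed in 9 components, where 37.3% of all genes were called. In the uninduced dnTcf4 line 4 were higher than in the uninduced shRNA line (FZD3, FZD6, CSNK1A1 and CTBP2) and 5 were lower (FZD2, FZD5, TNKS, BCL9L and TLE2), where 16.9% of all genes were higher and 20.5% lower. The groups did not overlap for 16 of the 34, where 49.9% of all genes did not overlap. This comparison shares its uninduced arrays with the induction comparisons, so a component that is low in 1 uninduced group can show both a difference here and a change there. Centring each array on its median put the median of all genes at 0.08 in this comparison, where it was -0.03 with the deposited scaling, and 10 components were then called, 5 in each direction.

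TLE2 showed the largest difference. It had 23.6, 21.9 and 26 in the uninduced dnTcf4 line, against 376.2, 372 and 282.7 in the uninduced shRNA line, a change of -3.84 ± 0.22 or 14.3-fold lower (adjusted p = 1.55e-09). Induced arrays of each line stayed near their own controls, with 278.7, 355.1 and 322.5 in shRNA-induced cells and 26.3, 12.4 and 18.3 in dnTcf4-induced cells. A second TLE2 probe set had a mean signal of 6.31 (geometric) in the uninduced dnTcf4 line, under the limit of 10.2 for a test, against 121 in the uninduced shRNA line, and passed that limit only through the shRNA line. TLE2 thus differed by line on every array.

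FZD2 had 114, 158.1 and 147 in the uninduced dnTcf4 line, against 302.2, 310 and 196.8 in the uninduced shRNA line (-0.93 ± 0.18, adjusted p = 0.000528). With induction it had 112, 121.4 and 121.4 in the dnTcf4 line and 266.9, 309.4 and 225.9 in the shRNA line, so that the order of the lines was the same. A dimmer FZD2 probe set was at -0.64 between the uninduced lines and did not pass (adjusted p = 0.094 over all probe sets tested). FZD6, a Frizzled known from planar polarity, ran the other way. It had 347.9, 311.6 and 351.9 in the uninduced dnTcf4 line, against 178.2, 196.3 and 262 in the uninduced shRNA line (0.69 ± 0.13, adjusted p = 0.000621). With induction FZD6 had 391.9, 327.8 and 350.8 in the dnTcf4 line and 212.3, 208 and 207.8 in the shRNA line.

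FZD5 and BCL9L, which rose in both inductions, stood lower in the uninduced dnTcf4 line, by 0.55 ± 0.10 (adjusted p = 0.000573) and 0.84 ± 0.22 (adjusted p = 0.00637). Dimmer probe sets of FZD5 and BCL9L were at -0.57 and -0.32 and did not pass (adjusted p = 0.147 and 0.298 over all probe sets tested). Induced dnTcf4 cells reached 587.1 to 700.9 for FZD5, above the 514.1 to 615.4 of the uninduced shRNA line in 2 of 3 arrays. TNKS, the other tankyrase, had 59.3, 70 and 52.7 in the uninduced dnTcf4 line, against 92.5, 94.3 and 112.2 in the uninduced shRNA line (-0.72 ± 0.17, adjusted p = 0.00336). FZD3 was higher by 0.42 ± 0.15 (adjusted p = 0.0403), CTBP2 by 0.28 ± 0.09 (adjusted p = 0.0181) and CSNK1A1 by 0.23 ± 0.07 (adjusted p = 0.0235). For FZD3 the call was lost without the first or the third array of the dnTcf4 line or the first or the second of the shRNA line (0.30 to 0.42). For CTBP2 it was lost without the third of the dnTcf4 line or the first or the second of the shRNA line (0.19 to 0.25), and for CSNK1A1 without the first or the third of the dnTcf4 line or the second of the shRNA line (0.19 to 0.22). FZD4 and BCL9 missed the threshold, at -0.76 (adjusted p = 0.0514) and 0.71 (adjusted p = 0.0795). TLE1, whose groups did not overlap, missed it as well, at -0.42 (adjusted p = 0.0683), with 52.7, 53.3 and 56.5 in the uninduced dnTcf4 line, against 81.5, 75.6 and 61.6 in the uninduced shRNA line. It passed at -0.54 without the third array of the shRNA line (adjusted p = 0.0314) and at -0.48 with array weights (adjusted p = 0.0158). FZD4 passed at -1.12 without the second array of the dnTcf4 line, and BCL9 passed at 1.04 without the first of the shRNA line. FZD7 did not pass on its brighter probe set (0.22, adjusted p = 0.199). With its probe sets averaged FZD7 was higher in the uninduced dnTcf4 line by 0.40 (adjusted p = 0.0155). CSNK1A1 had 2404.1, 2118.7 and 2284.7 in the uninduced dnTcf4 line, against 2000.7, 1877 and 1922 in the uninduced shRNA line, without overlap. On other CSNK1A1 probe sets tested the difference lay between -0.57 and 1.27, and the largest that passed was 1.08 (adjusted p = 0.00013 over all probe sets tested). CTBP2 had 1658, 1537.4 and 1888.4 in the uninduced dnTcf4 line, against 1346.7, 1343.3 and 1500.4 in the uninduced shRNA line, without overlap as well.

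A list of 89 other Wnt pathway genes, also written with earlier results known, was read beside the components. Of its 54 genes tested, 7 rose and 19 fell after knockdown, with a median of -0.15, where 16.6% of all genes rose and 17.4% fell. After dnTcf4 6 rose and 16 fell, with a median of -0.07, where 16.0% of all genes rose and 20.0% fell. The decreases were largest among 10 regulators at the receptor level. Against these shares, 8 of the 10 fell and 1 rose after knockdown, with a median of -1.003, and 7 fell and 1 rose after dnTcf4, with a median of -1.08, whereas the 9 receptors among the components had medians of 0.00 and -0.07.

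After knockdown the largest changes in this list besides CTNNB1 were those of LRP4 (-2.89), a co-receptor relative, APCDD1 (-1.87), a Wnt inhibitor at the membrane, and NKD1 (-1.73), which binds Dishevelled. AXIN2 (-1.60), the Axin paralogue that is itself a Wnt target gene, and LGR5 (-1.55), the R-spondin receptor of intestinal stem cells, followed. After dnTcf4 they were APCDD1 (-2.37), AXIN2 (-2.24), LGR5 (-2.23), ZNRF3 (-2.07), a ubiquitin ligase that removes Frizzled receptors, LEF1 (-2.03) and LRP4 (-1.99). AXIN1 stood beside AXIN2 at -0.07 after knockdown and -0.50 after dnTcf4, and LRP5 and LRP6 beside LRP4 at -0.21 and 0.29 after knockdown. All 34 components lay inside 1 unit of log2 in both inductions.

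**Figure D5:**
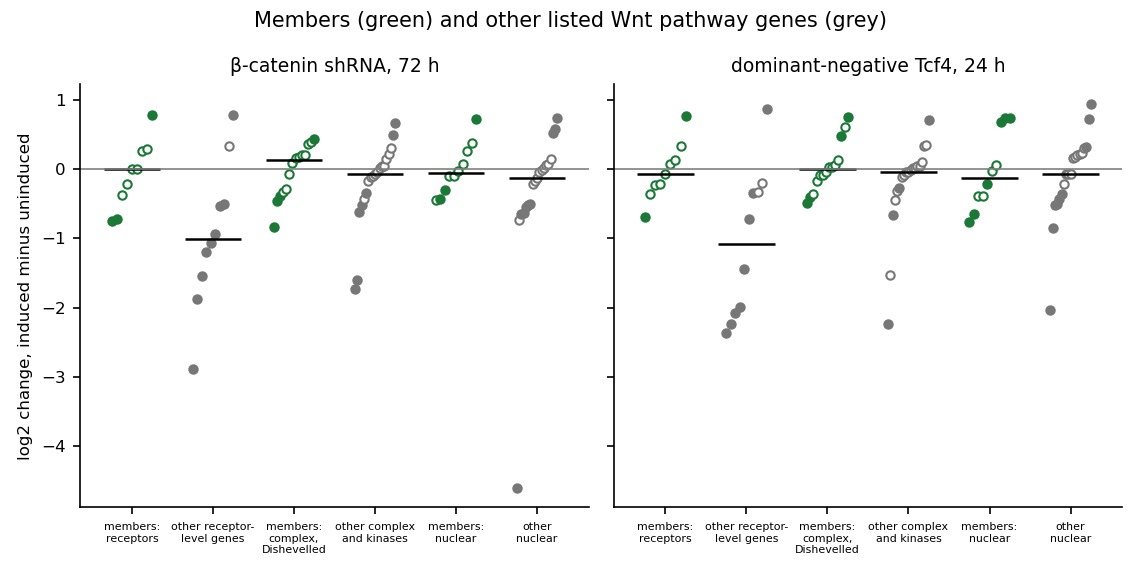
Change on the log2 scale (vertical axis, induced minus uninduced) of the Wnt components (green) and of other listed Wnt pathway genes (grey) after β-catenin shRNA (left) and dnTcf4 (right), by role. Points are genes, filled where the adjusted p is under 0.05, and horizontal lines are medians. Other receptor-level genes have medians of -1.003 and -1.08, whereas all components lie between -0.83 and 0.78.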

How the data were processed

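RNA of 12 Ls174T samples was hybridised to Affymetrix U133 Plus 2.0 arrays, per the labels' protocols. The deposited table gives 1 intensity (signal, linear scale, arbitrary units) per probe set and array, made by the authors with MAS5 and GCOS, per the submitters' processing notes. No versions, detection calls or genome build were given in the sources used here. On each array the mean of the middle 96% of probe sets is 100.0. Between 6.59% and 9.27% of values lay under 1, and these were set to 1 before log2. Because signals of dim probe sets are noisy and carry no calls, genes were tested if the mean log2 signal was at least 3.35 (a signal of 10.2), the median of all probe sets. Brightness differs between probe sets for reasons other than abundance, so levels are compared between groups and not between genes.

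Of 54675 probe sets 62 were controls and 41091 others had 1 gene symbol in the array annotation. For each of 19775 genes the brightest was used, and 7381 genes fell under the limit. Group means were fitted with limma 3.58.1 in R 4.3.3 (lmFit, eBayes with trend, 8 residual and 8.05 prior degrees of freedom). Two-sided p-values were adjusted by the Benjamini-Hochberg method over the 12394 genes tested, and for other probe sets of a gene over all probe sets tested. The number of arrays, 3 per group, limits the precision. All 38 members are named. The members and lists were chosen with earlier results of these data known. The labels name no batch. Alternatives were other normalizations (quantile, median centring, an offset of 3.5), other filters (none, or 6.28, a signal of 77.7), other ways to choose probe sets, other variance models, array weights, a replicate block and leaving out each array.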

Additional observations from a re-analysis of the deposited data

Results flagged for a closer look

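The changes of 2 components differed between the inductions by the test of the difference itself (limma). For TLE1 the change after β-catenin knockdown minus that after dnTcf4 was -1.13 on the log2 scale (95% interval -1.65 to -0.61, adjusted p = 0.00426), with all 3 knockdown arrays below their controls and all 3 dnTcf4 arrays above theirs. With all TLE1 probe sets averaged this difference was -0.78 and did not pass (adjusted p = 0.262). For TLE3 the difference was 0.83 (95% interval 0.32 to 1.34, adjusted p = 0.0241), with the decrease seen after dnTcf4 on the brightest probe set. Without probe sets ending in _x_at or _s_at TLE3 also fell after knockdown (-0.38, adjusted p = 0.0476). The difference of 0.54 then did not pass (adjusted p = 0.0788). Of 10 alternatives other than leaving out arrays, 5 kept the TLE3 call for the difference. The inductions differ in line, construct and time, which cannot be told apart.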

How the results depend on the processing

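Other than leaving out arrays, the alternatives gave 354 values for called components. Of these 290 kept direction and call, 62 kept the direction and lost the call, and 2 reversed. CSNK1D after knockdown was -0.0018 with all probe sets averaged, a dim one under the limit for a test included. CTBP1 after knockdown was 0.63 without probe sets ending in _x_at or _s_at, where its dim probe set alone remains. With all probe sets averaged, 5 components were called after knockdown, 5 after dnTcf4 and 1 (FZD7, 0.63) for the difference of the changes. Without _x_at and _s_at probe sets 7 were called after dnTcf4, where FZD5 was at 0.24. The count for the difference, 2, was 1 with median centring, no _x_at or _s_at probe sets, or the replicate block. It was also 1 with the stricter filter, under which TLE1 was not tested (mean log2 signal 6.03, under the limit of 6.28). Of 210 leave-one-out values 156 kept the call and 54 lost it, with counts of 6 to 10 after knockdown, 8 to 11 after dnTcf4, 1 to 2 for the difference and 6 to 10 between uninduced lines. The cause was not tested. The labels do not say whether the replicate numbers pair samples. Same-numbered arrays showed no shared deviation (correlations -0.08 to 0.05), which cannot settle this, and the main fit did not use the numbers. With the replicate number as a block 7, 9, 1 and 9 components were called in these 4 comparisons. Low signals lack detection calls, which limits what is said of dim components.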

Other observations

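Among the other listed pathway genes, which the report gives mainly as counts, several partners of the components changed. RNF146, the ubiquitin ligase that acts after tankyrases on Axin, rose by 0.66 ± 0.14 on the log2 scale after β-catenin knockdown (SE, limma, adjusted p = 0.0014) and by 0.70 ± 0.14 after dnTcf4 (adjusted p = 0.00087). LGR4, an R-spondin receptor, rose by 0.77 and 0.87, where its relative LGR5 fell. RUVBL1, an ATPase that binds β-catenin, fell by 0.52 and 0.85, HDAC2 by 0.50 and 0.43, and the kinase subunit CSNK2A2 by 0.51 and 0.66. JUP, which encodes plakoglobin, a relative of β-catenin, rose by 0.52 and 0.94.

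TLE5, a short Groucho relative without the repressing end of the others, fell by 0.65 after knockdown (adjusted p = 0.00035), changed by 0.22 after dnTcf4 (adjusted p = 0.16), and the difference of -0.87 passed (adjusted p = 0.0017). The ligand WNT10A rose by 1.24 after knockdown (adjusted p = 0.001), changed by 0.06 after dnTcf4, and the difference of 1.18 passed (adjusted p = 0.029). These genes were picked from the list after their values were seen.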
